A study of Homo sapiens with 4 samples.

Results

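The subject is the H3K27ac enhancer regions that the deposited tables name for 9 genes of the ETS family of transcription factors: ERG, FLI1, ETS1, ETS2, ETV6, ELF1, ELF2, SPI1 and ELK3. The genes were chosen by name, and a region belonged to a gene when that gene's symbol stood in the table's gene column. Over the 4 tables this gave 83 of 45672 regions. All 9 genes had at least 1 region in some table, and ERG, ETV6 and ELF1 (3 of 9) had a region in each of the 4, as did 12.1% of the genes named in any table.

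Kasumi-1, a human acute myeloid leukaemia line with the t(8;21) translocation that joins RUNX1 to RUNX1T1, was edited by CRISPR/Cas9 using either a control guide without a target (sgNT, labelled WT, 2 samples) or a SETD8 guide (sgSETD8, labelled SETD8 knockout, 2 samples). SETD8, gene symbol KMT5A, monomethylates lysine 20 of histone H4. Acetylated lysine 27 of histone H3 was mapped by CUT&Tag, in which an antibody tethers a transposase to marked chromatin, and the series' design text names H3K27me1 where the antibody labels name H3K27ac. Whether the knockout cells were a pool or a clone, and whether the 2 samples of a group were separate cultures, is not given in the sources used here. These 4 tables form 2 pairs, each with 1 table a group. The sparse pair holds 5186 sgNT and 7276 sgSETD8 regions with median widths of 512 and 341 bp, and the dense pair holds 15149 and 18061 with median widths of 1515 and 1499 bp. The tables hold no counts, so depth is unknown. With 2 tables against 2 the smallest exact two-sided permutation p is 0.333, so no p-value is given, and no value within a pair has a replicate error.

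The identity of the cells was checked against markers. Of 7 genes that mark t(8;21) myeloblasts, 5 had a dense sgNT and 7 a dense sgSETD8 region, led by KIT at ranks 5 and 3 by signal. Erythroid genes had regions for 1 of 4 in both dense tables, and epithelial and other non-blood genes for 0 of 5 in sgNT and 1 of 5 in sgSETD8. B cell genes had them for 1 and 2 of 4, PAX5 in both tables, and T cell genes for 4 of 4 in both. The part of these lists in the results below was not tested.

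ETS factors share a DNA-binding domain, the ETS domain, that reads a GGAA core. ERG and FLI1 work with RUNX1, GATA2, TAL1, LYL1 and LMO2 as the combination of factors known as the stem cell heptad, and in t(8;21) leukaemia they bind many of the sites held by the RUNX1-RUNX1T1 fusion. SPI1 (PU.1) drives myeloid differentiation, and ETV6 is a repressor needed by blood stem cells and a frequent partner in leukaemic fusions.

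To show how start sites of these genes fell against the dense regions, the 250 bases before 4 of them are given 5' to 3' on the gene's strand, from RefSeq on GRCh38.p14. Capitals mark the ETS core GGAA and the RUNX core TGTGGT on either strand (TTCC and ACCACA on the other). The windows of an internal ERG start (chr21:38498478-38498727, minus strand) and of ETV6 (chr12:11649424-11649673, plus strand) lay inside a region of both dense tables, that of ELF1 (chr13:41061387-41061636, minus strand) inside the sgNT region alone, and that of ETS2 (chr21:38804933-38805182, plus strand) inside the sgSETD8 region alone.
ERG: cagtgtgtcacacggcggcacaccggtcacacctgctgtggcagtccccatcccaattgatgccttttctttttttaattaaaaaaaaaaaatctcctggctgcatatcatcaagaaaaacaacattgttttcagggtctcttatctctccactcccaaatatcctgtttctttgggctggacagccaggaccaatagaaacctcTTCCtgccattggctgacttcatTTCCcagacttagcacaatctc
ETV6: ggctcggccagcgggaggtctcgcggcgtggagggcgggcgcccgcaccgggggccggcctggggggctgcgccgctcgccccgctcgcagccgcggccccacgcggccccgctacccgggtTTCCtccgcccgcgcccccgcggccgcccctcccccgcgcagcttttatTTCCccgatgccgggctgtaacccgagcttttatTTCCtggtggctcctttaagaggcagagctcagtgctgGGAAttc
ELF1: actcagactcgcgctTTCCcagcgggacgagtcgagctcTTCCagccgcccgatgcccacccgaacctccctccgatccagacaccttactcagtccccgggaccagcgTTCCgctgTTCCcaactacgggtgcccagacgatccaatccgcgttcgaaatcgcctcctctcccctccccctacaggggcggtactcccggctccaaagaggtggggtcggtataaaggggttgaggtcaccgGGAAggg
ETS2: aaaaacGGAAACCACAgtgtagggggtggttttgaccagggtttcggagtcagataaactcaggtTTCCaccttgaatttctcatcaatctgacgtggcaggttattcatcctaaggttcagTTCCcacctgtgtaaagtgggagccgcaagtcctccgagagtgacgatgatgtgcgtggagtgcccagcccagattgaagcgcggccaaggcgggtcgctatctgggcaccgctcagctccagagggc

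RefSeq windows were matched for 6 of the 9 genes, 14 windows in all. Of these, 9 lay wholly inside a dense sgNT region, 10 inside a dense sgSETD8 region and 0 inside a sparse region. GGAA was found on either strand in 12 of the 14, against 92.7% of all 35116 windows of this length. The longer ETS sequence CCGGAAG, which contains GGAA, was in 0 of 14 (8.52% of all), and TGTGGT was in 1, the ETS2 window above (10.98% of all), where its reverse form ACCACA directly follows a GGAA. These are letter matches in short windows.

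In the dense pair the 9 genes had 31 sgNT and 27 sgSETD8 regions. Fewer regions with sgSETD8 were seen for FLI1, ETS1 and ELF2 (3 of 9, against 21.2% of the 10826 genes with a region in either dense table), more for ERG (1 of 9, against 37.3%), and the same number for the other 5. Covered length ran the other way in sum, 581 kb in sgNT and 665 kb in sgSETD8, a log2 ratio of 0.20 that is close to the 0.20 over all regions. It was longer with sgSETD8 for 5 of 9 genes (62.1% of those 10826) and shorter for 4 (37.8%). Per gene, the median log2 ratio over the 9 was 0.08, and over the 7376 genes with a region in both dense tables it was 0.19. The constituent peaks joined into these regions numbered 148 and 154.

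In the sparse pair the genes had 17 sgNT and 8 sgSETD8 regions, while over all regions the sgSETD8 table was 1.40 times the larger. Counted by position over the gene spans, whatever the name, there were 18 and 13, a log2 ratio of -0.47 against -1.09 by name. SPI1 and ELK3 had 0 regions by name in both tables. Of the other 7 genes, ETV6, ETS2, ELF2 and FLI1 had fewer (4 of 7, against 33.4% of the 7397 genes with a region in either sparse table) and ETS1 had more (1 of 7, against 51.3%). Length was greater with sgSETD8 for 2 of the 7 (55.1% of those 7397) and smaller for 5 (44.9%). In sum it was 19.96 kb in sgNT and 32.0 kb in sgSETD8, and this sum rested on 2 genes: without ELF1 it was 18.3 and 3.31 kb, and without ETV6 it was 6.88 and 31.4 kb.

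**Figure D1:**
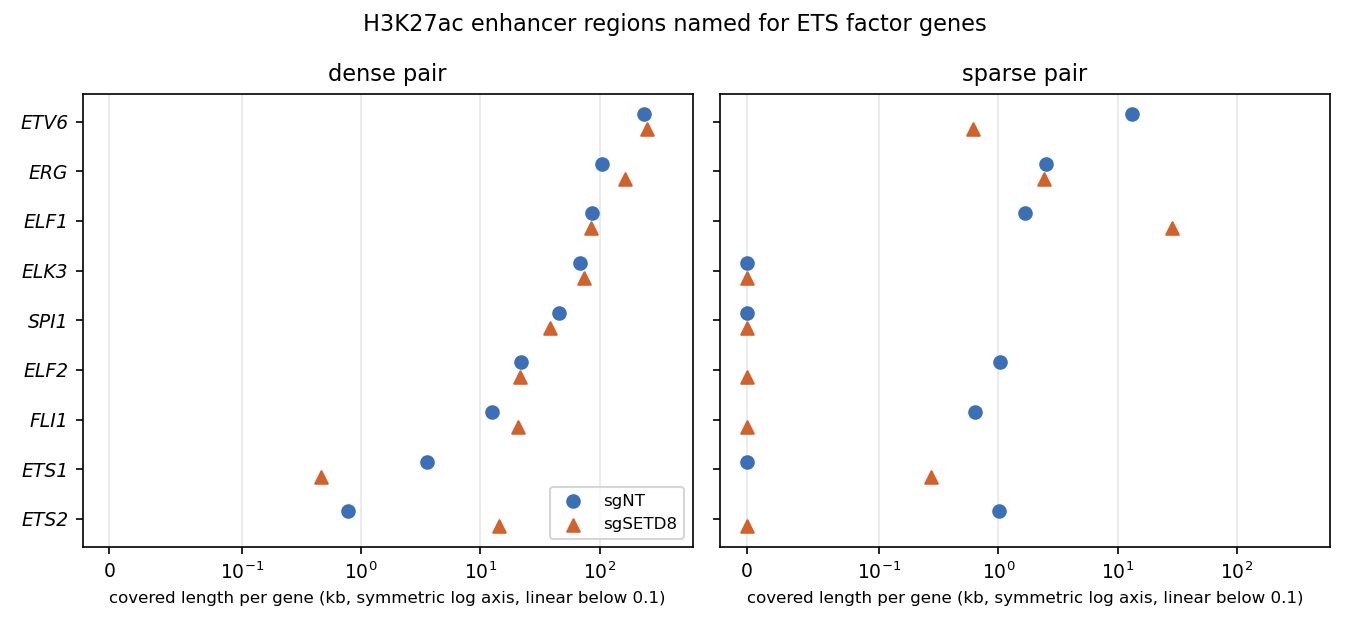
Covered length per gene in kb (x axis, symmetric log scale that is linear below 0.1) for each of the 9 genes (y axis, ordered by dense sgNT), with the dense pair on the left and the sparse pair on the right; circles are sgNT and triangles sgSETD8, 1 table each. In the dense pair the symbols lie close together for ETV6, ELF1, ELF2 and ELK3 and far apart for ETS1 (3.59 and 0.458 kb) and ETS2 (0.775 and 14.3 kb), while in the sparse pair ETV6 and ELF1 differ in opposite directions.

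ERG, the ETS factor of stem cells and megakaryocytes, had the second highest-ranked dense region of the 9 genes, after that of ETV6. In dense sgNT its best region covered 99.8 kb (chromosome 21, 38408203 to 38507954, intron, 19 peaks, rank 46 of 15149), and in dense sgSETD8 145 kb (38374686 to 38519979, intron, 28 peaks, rank 35 of 18061). The sgSETD8 region also reached towards the 3' end of the gene, to 7.4 kb from the end of the gene span. In that part dense sgNT held a separate 4-peak region that carries the name of LINC01423, a neighbouring long noncoding RNA. By position, that 145 kb interval held 23 peaks and 114 kb of regions in sgNT, and in sgSETD8 it was joined end to end. Mean signal per covered bp there was 1.27 in sgNT, over 114 kb, and 0.810 in sgSETD8, over 145 kb, so the values have different denominators.

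Of ERG, 3 stretches were covered in all 4 tables. The one nearest the internal start (chromosome 21, 38493657 to 38493951, 295 bp) and the one before it (38475569 to 38476864, 1296 bp) were narrow, and they held the best-ranked sparse ERG regions of both groups. In sparse sgNT the region over the second had a density of 13.4 per bp and rank 50, and in sparse sgSETD8 5.09 per bp and rank 160. These density values are the authors', and their scale is not stated, so they are read within a table. The third stretch was 10.8 kb wide towards the 3' end (38376518 to 38387338), named for LINC01423 in 3 of the tables. Outside the long region, ERG had a further region at 38595402 to 38599680 in dense sgNT (4.28 kb, rank 5475) that reached 38611144 in sgSETD8 (15.8 kb, rank 4144). Its other dense regions were single peaks of 361 to 432 bp at ranks 13165 to 17852, and none of these 5 overlapped a region of the other group.

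FLI1, the closest relative of ERG and a factor of the megakaryocyte lineage, had 12 dense sgNT and 10 dense sgSETD8 regions by name, covering 12.6 and 20.6 kb. Each of these regions was a single peak, and all 12 of sgNT and 9 of sgSETD8 lay upstream of the gene. The best-ranked FLI1 region of the sgSETD8 table (chromosome 11, 128690361 to 128698730, intron 1, centred 473 bp from a start site, density 2.20 per bp, rank 1017) had no region named FLI1 opposite it in sgNT. At that place dense sgNT held a region named for SENCR (128692260 to 128698601, density 3.07 per bp, rank 1174), a noncoding RNA that starts inside FLI1 on the other strand. Both dense tables thus held a region at this place, under different names. Between the last upstream region and this one, 4 peak numbers of dense sgNT and 3 of dense sgSETD8 belong to peaks that are not listed, so coverage near the start may be incomplete in both.

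The same naming hides most of the FLI1 gene. Over its span (128685132 to 128813267) dense sgNT had 22 regions, 0 of them named FLI1, and dense sgSETD8 had 18, of which 1 was. They covered 49.6 and 52.4 kb, 38.7% and 40.9% of the span. The strongest was a long intron 1 region named for SENCR, 16.9 kb in sgNT (128712096 to 128728990, rank 406) and 20.3 kb in sgSETD8 (128709463 to 128729735, rank 266). The upstream regions named FLI1 covered 12.6 kb in sgNT and 12.2 kb in sgSETD8. Among sparse regions FLI1 had 1 sgNT region by name (128678275 to 128678913) and 0 in sgSETD8, and within the span 1 and 2 SENCR regions.

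**Figure D2:**
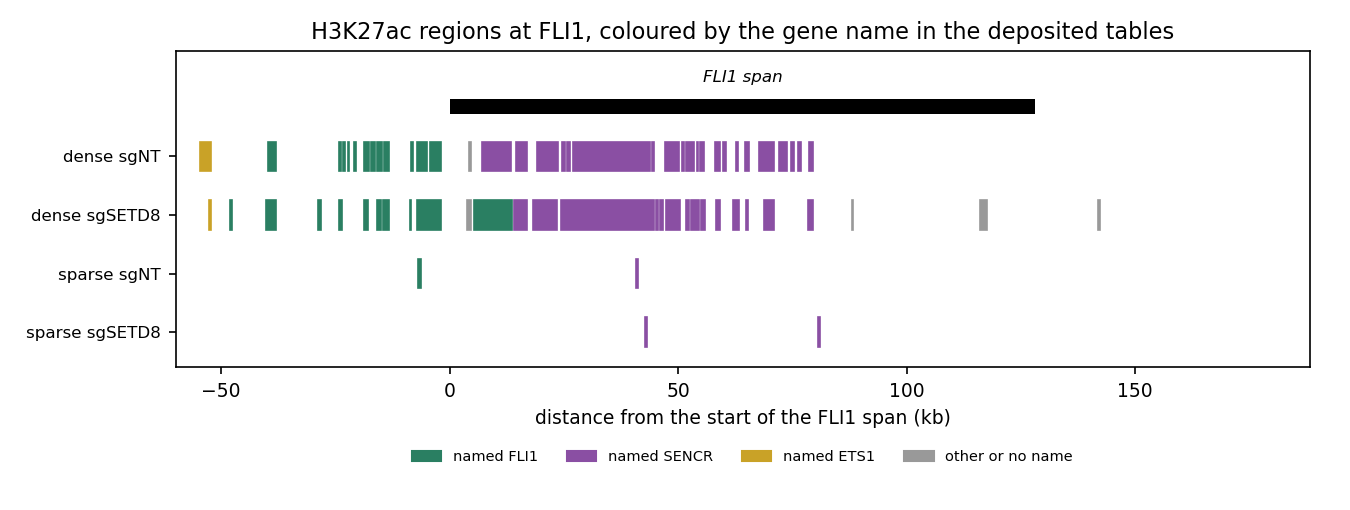
Regions of the 4 tables along the FLI1 locus (x axis, kb from the start of the FLI1 span, black bar), 1 row per table, coloured by the gene name in the table. Regions named FLI1 lie upstream apart from 1 sgSETD8 region inside the gene, and both dense tables cover the first part of the gene with regions named SENCR.

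ETV6 had the highest-ranked region of the 9 genes in both dense tables. It spanned nearly the whole gene, 235 kb in sgNT (chromosome 12, 11648102 to 11882931, rank 13) and 242 kb in sgSETD8 (11648092 to 11890349, rank 15), and was joined from 54 peaks in each. ETV6 alone made up 40.8% of the covered length of the 9 genes in sgNT and 37.7% in sgSETD8. The density of this region was 1.10 per bp in sgNT and 0.764 in sgSETD8. Densities were lower in dense sgSETD8 in general: over the 1769 dense regions that matched between groups with 90% mutual cover the median log2 ratio was -0.26. Relative to that median the ETV6 region stood at -0.27 on the log2 scale, with 11.7% of the matched regions below it and an SD over those regions of 0.24.

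The sparse tables gave ETV6 7 sgNT regions and 2 sgSETD8 regions, covering 13.1 and 0.618 kb. The longest sgNT region lay in intron 2 (11766372 to 11774513, 8.14 kb, rank 445), 66847 bp from the nearest sgSETD8 region. None of the 7 overlapped either of the 2 by position, and each of the 9 overlapped a dense region of both groups. A 293 bp stretch over exon 5 (11869369 to 11869661), named for the neighbour BCL2L14 in the sparse tables, was covered in all 4 tables.

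SPI1 had 1 region in each dense table. In sgNT it ran from 47358361 to 47404055 on chromosome 11 (45.7 kb, 7 peaks, density 1.23 per bp, rank 250) and in sgSETD8 from 47358243 to 47396202 (38.0 kb, 5 peaks, 1.03 per bp, rank 330). The sgNT region reached 7.85 kb further upstream of the gene, a stretch with no region in dense sgSETD8 or in either sparse table. Inside the gene the tables were alike, with 85.2% and 85.7% of the SPI1 span covered. Neither sparse table names SPI1, yet both hold a region overlapping its span that is named for MYBPC3, a muscle gene next to it: 47358744 to 47360174 in sgNT (rank 572) and 47356410 to 47358661 in sgSETD8 (rank 174). These sparse regions did not overlap each other.

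ELF1, a factor of blood and lymphoid cells, had a pair of long intronic regions in each dense table. The larger was 71.9 kb in sgNT (chromosome 13, 40961415 to 41033320, 17 peaks, rank 156) and 72.9 kb in sgSETD8 (40961269 to 41034184, 18 peaks, rank 154), with a relative log2 density of -0.03. The smaller, at the start of the gene, was 13.8 kb in sgNT (41048777 to 41062624, rank 1554) and 11.1 kb in sgSETD8 (41048280 to 41059354, rank 2220), and its sgSETD8 end stops short of the start site whose window is shown above. The sparse direction was opposite to that of ETV6, with 1.68 kb in sgNT and 28.7 kb in sgSETD8, 2 regions each. One sparse sgSETD8 region, 11.8 kb wide (40994187 to 41005985, rank 52), contained the 1.10 kb sgNT region (41004689 to 41005787, rank 224). The other, 16.9 kb wide (41041761 to 41058699, rank 140), had no sparse sgNT region within 35974 bp and overlapped both dense tables.

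ELF2, the close relative of ELF1, had 3 dense sgNT and 2 dense sgSETD8 regions by name, covering 22.1 and 21.7 kb. The best lay over an internal start, 139070084 to 139084787 in sgNT (chromosome 4, rank 2085) and 139074412 to 139084852 in sgSETD8 (rank 2390). A 10-peak region over the upstream start of the gene has no gene name in either table, and it ranked higher than any region named ELF2: 50.5 kb in sgNT (139141326 to 139191873, rank 655) and 50.8 kb in sgSETD8 (139141157 to 139191918, rank 869). The sparse tables had 2 and 0 regions named ELF2, and at one of them (139214263 to 139214644) sparse sgSETD8 also had a region, which carries no name.

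ELK3, a factor that binds with SRF and acts as a repressor until phosphorylated, had 3 regions in each dense table and 0 in the sparse ones. The main one was 61.0 kb in sgNT (chromosome 12, 96176870 to 96237912, 13 peaks, rank 435) and 65.5 kb in sgSETD8 (96176024 to 96241485, 14 peaks, rank 338). Its relative log2 density was 0.12. A 7.09 kb intergenic region upstream (96136049 to 96143133, rank 5618) had a counterpart of 7.52 kb (96136406 to 96143927, rank 5170). The remaining region of each table was a single peak (442 and 410 bp), at different places.

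ETS2 showed the largest ratio of covered length in the dense pair among these genes. In sgNT it had a 775 bp region in intron 7 (chromosome 21, 38817728 to 38818502, rank 10219), and in sgSETD8 a 14.3 kb region of 2 peaks from before the start site to that same intron (38803889 to 38818151, density 0.433 per bp, rank 3341). The ratio was 18.4, and the share of the ETS2 span covered was 3.92% and 65.6%. Peak numbers in the identifiers bear on this contrast. Between the last single-peak ERG region and the next region after ETS2, 2 numbers of the dense sgNT table and 1 of the sgSETD8 table belong to peaks that are not listed, and where those peaks lie cannot be told from the tables. In the dense pair, 44 sgNT and 50 sgSETD8 regions lay wholly within 2500 bp of a start site. The part of unlisted peaks in the ETS2 difference was not tested. The sparse pair went the other way by name, with 2 sgNT regions (38817851 to 38818143 and 38831314 to 38832031) and 0 in sgSETD8. Over the ETS2 span the sparse shares covered were 1.48% and 0. Beyond the gene, sparse sgSETD8 held a region named for LOC101928398 that lay 876 bp from the second sgNT region.

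ETS1, the lymphoid founding member of the family, had little length covered by listed regions. Dense sgNT held 3 regions (3.59 kb), of which 2 lay inside the gene at ranks 10633 and 11624, and dense sgSETD8 held 1 of 458 bp (chromosome 11, 128632393 to 128632850, rank 11977) within the third sgNT region (128630543 to 128632910, rank 7729), upstream in the direction of FLI1. The share of the ETS1 span covered was 0.951% in dense sgNT and 0 in dense sgSETD8. Sparse sgSETD8 held 1 region in an intron (128518869 to 128519142, rank 6407 of 7276) that no other table covered.

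**Figure D3:**
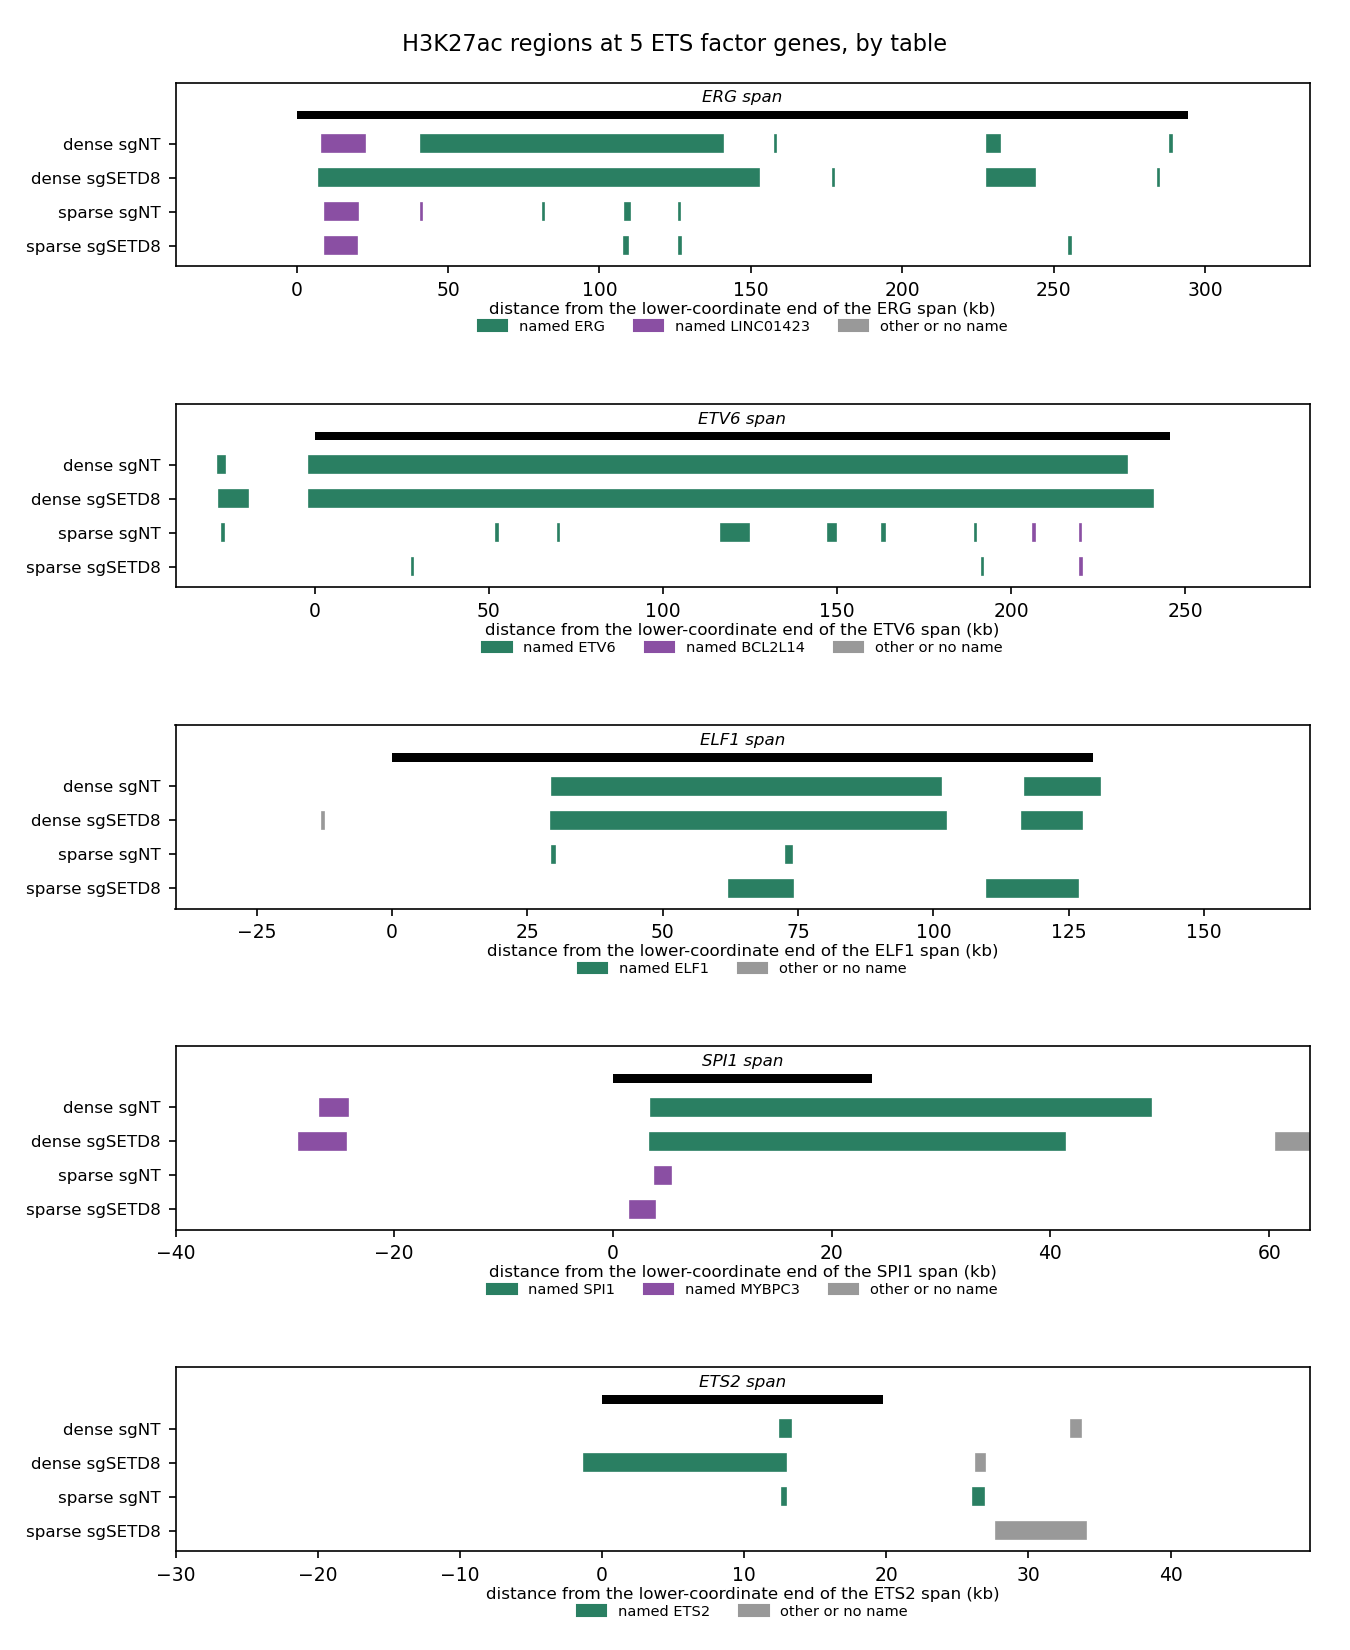
Regions of the 4 tables at ERG, ETV6, ELF1, SPI1 and ETS2 (x axis, kb from the lower-coordinate end of each gene span, black bar), 1 row per table, coloured by the gene name in the table. The dense tables share the long ETV6, ELF1 and SPI1 regions, ERG is 1 joined region in dense sgSETD8 and 2 regions in dense sgNT over the same 145 kb, and at ETS2 the dense sgSETD8 region reaches the start of the gene.

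Because regions inside these genes can carry a neighbour's name, the share of each gene span covered by any region was also compared. In dense sgNT the order was ETV6 (94.9%), SPI1 (85.2%), ELF1 (65.3%), ELK3 (57.7%), ELF2 (43.0%), ERG (40.3%), FLI1 (38.7%), ETS2 (3.92%) and ETS1 (0.951%). In dense sgSETD8 it was ETV6 (97.95%), SPI1 (85.7%), ETS2 (65.6%), ELF1 (64.9%), ELK3 (63.0%), ERG (54.97%), FLI1 (40.9%), ELF2 (39.1%) and ETS1 (0). With 1 table a group there is no spread by which to separate neighbours in these orders. The share was higher with sgSETD8 for ERG (by 14.6 percentage points), FLI1, ETS2, ETV6, SPI1 and ELK3 (6 of 9, against 60.1% of protein-coding genes) and lower for ETS1, ELF1 and ELF2 (3 of 9, against 37.9%). Over the 8 genes covered in both tables the median difference was 2.58 points, and over the 5791 protein-coding genes covered in both it was 0.53 points, with a 10th to 90th percentile range of -14.8 to 19.9. By the same measure ELF2 and ELK3 were at 0 in both sparse tables. Of the 7 genes covered in either, the share was higher with sgSETD8 for FLI1, ETS1, ELF1 and SPI1 (4 of 7, against 49.7% of 3953 protein-coding genes covered in either) and lower for ERG, ETS2 and ETV6 (3 of 7, against 50.2%).

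**Figure D4:**
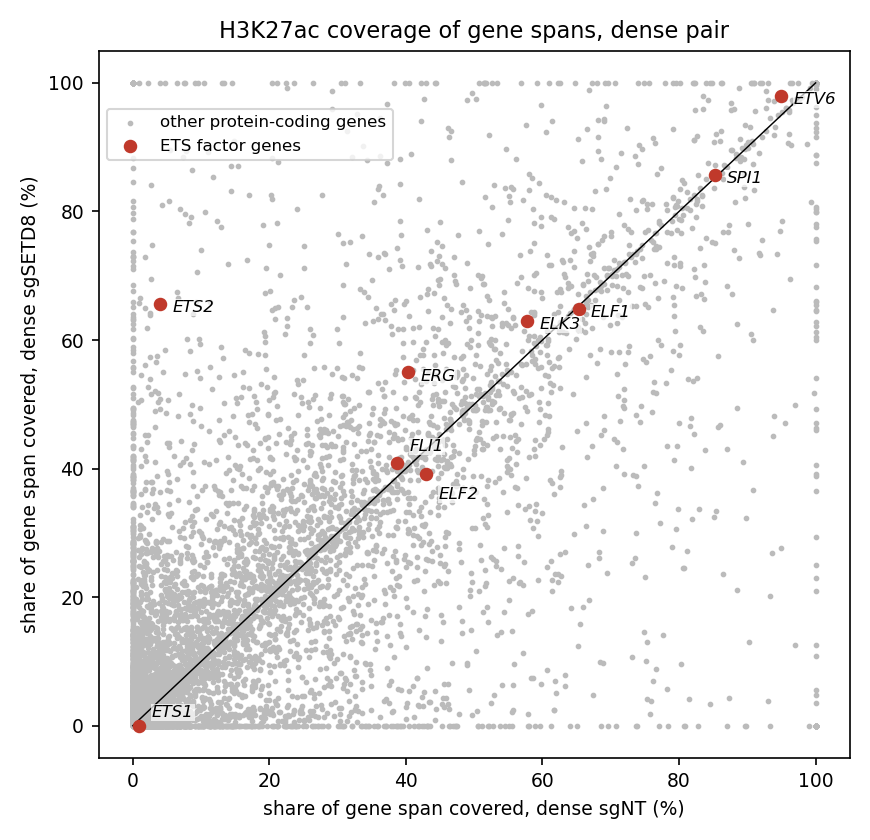
Share of the gene span covered by any H3K27ac region in dense sgNT (x axis, %) and dense sgSETD8 (y axis, %), for the 9 ETS factor genes (red, labelled) and all other protein-coding genes with coverage in either table (grey); the line marks equal shares. ETS2 lies far above the line (3.92% and 65.6%), ERG above it (40.3% and 54.97%), and the other genes near it.

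Unmatched regions, those that no region of the other group's table overlapped, were next counted. In dense sgNT these were 10 of 31 regions (32.3%, against 22.7% of all sgNT regions) and in dense sgSETD8 6 of 27 (22.2%, against 34.0%). The best-ranked sgNT ones were single peaks upstream of FLI1 at 128664164 to 128664730 (rank 9442), in ETS1 at 128488364 to 128489179 (rank 10633) and upstream of FLI1 at 128667913 to 128668755 (rank 11131). The sgSETD8 ones began with an upstream FLI1 peak at 128656417 to 128657061 (rank 13194), an ELK3 peak at 96258197 to 96258606 (rank 16350) and an ERG peak at 38651691 to 38652122 (rank 16448). All of them ranked below 5000 in their tables, so every region of these genes among the best 5000 of a dense table was matched. The matched share over all of the best 5000 regions is not given here, so this is not read as particular to these genes. Of the sparse regions, 13 of 17 sgNT regions (76.5%, against 79.1%) and 5 of 8 sgSETD8 regions (62.5%, against 85.1%) had no counterpart.

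The sparse regions of these genes largely overlapped dense ones, by at least 1 bp. All 17 sparse sgNT regions and 6 of the 8 sparse sgSETD8 regions overlapped a dense region of either group, against 79.0% and 29.3% of all sparse regions. The 2 exceptions were the ERG region at 38622457 to 38622851 and the ETS1 region.

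Super-enhancers, computed here as regions beyond the point where the curve of ranked signal, scaled on both axes, reaches slope 1, included 5 regions of these genes in each dense table. They were the leading regions of ETV6, ERG, ELF1, SPI1 and ELK3 in both groups. By name this is 5 of 31 and 5 of 27 regions, against 4.69% and 4.26% of all regions. Regions under other names are left out of these counts. The FLI1 intron 1 region named for SENCR (ranks 406 and 266) was among the 710 sgNT and 770 sgSETD8 super-enhancers. The unnamed region over the upstream start of ELF2 was among them in sgNT (rank 655) but not in sgSETD8 (rank 869). Sparse sgNT had 1 (ERG), 1 of 17 against 3.05% of all, and sparse sgSETD8 had 3 (ERG 1 and ELF1 2), 3 of 8 against 2.82%. Under other names, the best-ranked LINC01423 region over ERG was among the 158 of sparse sgNT (rank 152) but not the 205 of sparse sgSETD8 (rank 294). The MYBPC3 region overlapping SPI1 was among those of sparse sgSETD8 (rank 174) but not of sparse sgNT (rank 572).

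Signal density could be compared at 3 regions that matched with 90% mutual cover, those of ETV6, ELK3 and ELF1 given above, whose median relative log2 difference was -0.03. At 50% mutual cover 14 regions matched, among 6011 in all. Lowest was the long ERG region at -0.44, with 7.42% of matched regions below it, and highest were the upstream ELK3 region at 0.45 (93.7% below it) and the ELF2 region over the internal start at 0.38 (90.3% below it). The 6 FLI1 regions lay between -0.21 and 0.03, and SPI1 was at 0.02. The ERG regions differ in length between the groups (99.8 and 145 kb), and the part of length in this value was not tested.

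The other 19 ETS family genes had 12 dense sgNT and 11 dense sgSETD8 regions. With sgSETD8, 3 genes had more and 3 fewer, against 37.3% and 21.2% of the 10826 genes with a region in either dense table. The number was equal for 4, and 9 had no dense region. In the sparse pair, where the sgSETD8 table was 1.40 times the larger over all regions, these 19 genes had 7 and 11. ETV5, a PEA3 subfamily member, led them with 3 regions in every table, covering 115 kb in dense sgNT and 65.8 kb in dense sgSETD8 (26 and 14 peaks). EHF, an epithelial ETS factor, had 1.52 kb in dense sgNT and 13.3 kb in dense sgSETD8, and 0 and 3 sparse regions. ELF5, also epithelial, had 1 and 2 regions in both pairs. SPDEF had 3 dense sgNT regions (24.6 kb) and 1 dense sgSETD8 region (1.82 kb), and 0 and 1 in the sparse pair. ELF4, a lymphoid and myeloid factor, had a single dense region of 39.1 and 37.7 kb.

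The 7 partner genes had 36 regions in each dense table (256 and 249 kb). With sgSETD8, 2 had more and 2 fewer, against 37.3% and 21.2% of the 10826 genes with a region in either dense table. The number was equal for 2, and 1 had no dense region. In the sparse pair, where the sgSETD8 table was 1.40 times the larger over all regions, the partner genes had 9 and 5. RUNX1 held 28 and 29 of the dense regions, nearly all single peaks (29 and 30 peaks), which covered 99.0 and 112 kb. LMO2, the adaptor of the heptad, had 66.2 and 67.3 kb, and GATA2 19.8 and 12.6 kb in the dense pair. TAL1 had 18.0 and 16.7 kb and LYL1 9.59 and 10.0 kb. CBFB, the RUNX cofactor, had 43.4 kb in dense sgNT and 29.9 kb in dense sgSETD8, with 11 and 8 peaks. GABPB1, the partner of GABPA, had 0 regions in all 4 tables.

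By likeness of covered length over the 4 tables, measured as the Euclidean distance in log2(kb + 1) among the 1592 genes with a region in all 4, the genes nearest to ERG were SATB1 (0.475), DIP2B (0.477) and UBASH3B (0.490). FLI1 has no region in sparse sgSETD8 and so had no such neighbours.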

How the data were processed

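H3K27ac CUT&Tag of Kasumi-1 cells was represented by 4 deposited tables of enhancer regions, 2 a group. Cutadapt, Bowtie2 and hg38 are listed, without versions, per the submitters' processing notes. How peaks were called, joined and annotated is not given in the sources used here. Each table's value column is a signal, deposited by the authors: a density per bp times the region's length, on an unstated scale. Depth is unknown. Groups were read from guide names inside the identifiers. The sparse sgNT identifiers give the cell line with no guide, and that table was taken as sgNT because SETD8 is not named in it. Tables could not be tied to single samples.

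Regions were taken by gene name, and 1 shared bp counted as overlap. Densities were compared at regions with 90% mutual cover, relative to the median of all such regions. Gene spans came from a RefSeq gene table on GRCh38.p14, which matched all 9 genes. Named in the text are the 9 genes, the 5 other family genes with most regions (3 more tied for the next place), all partner genes, each gene's best regions, and the 3 best-ranked unmatched dense regions a group. The genes, lists and alternatives were chosen with earlier results of these data known, and coverage of gene spans was added after the tables were read. The overlap and density routines were tested on simulated data. Python 3.11.15, numpy 2.4.6, pandas 2.3.3 and matplotlib 3.10.9 were used.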

Additional observations from a re-analysis of the deposited data

How the results depend on the processing

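Values here are log2 ratios of sgSETD8 over sgNT unless named as counts. The dense number of regions (-0.20) turned to 0.057 when constituent peaks were counted and to 0.46 in the best-ranked 5000 regions. The dense covered length (0.20) turned to -0.33 within 50000 bp of the annotated start sites, a limit that drops the long ETV6 regions of both tables and the long ERG region of sgSETD8 alone, and it kept its sign in the other alternatives run. The sparse number of regions (-1.09) kept its sign in all those run and was smallest in size by position over gene spans (-0.47). The sparse covered length (0.68) became 2.14 within 50000 bp of start sites and 2.19 without ETV6, and turned to -2.47 without ELF1. Leaving out genes and counting by position were chosen after seeing the data. The mean number of regions was -0.64 ± 0.63 (SD, n = 2 pairs) and the mean covered length 0.44 ± 0.34 (SD, n = 2 pairs). Leaving out each pair in turn only returns the other pair's value, -1.09 and -0.20 for number and 0.68 and 0.20 for length. With 2 pairs such values cannot lie more than 1 SD from the mean, so they test nothing, though they are among the 45 values counted below. Unmatched dense sgSETD8 regions (6) were 11 when 50% of the region had to be covered and 0 among the best-ranked 5000. Unmatched dense sgNT regions (10) were 0 among the best-ranked 5000 and 6 when neighbouring regions of both tables were merged. No share over all of the best-ranked 5000 regions stands beside these counts. Another 45 values kept their direction and stayed within the limit set for their kind of value. For numbers of regions that limit was an interval that treats regions as independent draws, and covered length borrowed its width. Counts of unmatched regions and of super-enhancers had no interval. None of these limits holds a replicate error, so staying within them is not a test of stability. The other causes were not tested, and unknown depth limits all values. No paired analysis was possible because a fit with the replicate number as a block needs each table tied to a numbered sample, which the tables do not allow. The sparse and dense pairs above are set by the form and identifiers of the tables.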

Other observations

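Repeats at the centre of these regions varied by table. Of the regions named for the 9 genes, 11 of 31 in dense sgNT and 10 of 27 in dense sgSETD8 were centred in a repeat by the deposited annotation, against 38.4% and 39.7% of all regions. In the sparse pair it was 4 of 17 and 3 of 8, against 30.2% and 51.3%. Introns held 14 and 13 of the dense regions and intergenic sequence 16 and 13, the latter mostly the upstream FLI1 peaks. Over all regions introns held 68.3% and 67.5% and intergenic sequence 24.5% and 25.4%. All 8 sparse sgSETD8 regions were intronic, as were 12 of 17 in sparse sgNT, against 47.3% and 56.1% of all regions of those tables.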
